A study of Homo sapiens with 2 samples.

Results

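Cytosolic ribosomal protein genes were examined as a group in hematopoietic cells made from human pluripotent stem cells. A gene was a member if its symbol was RPL or RPS with a number and optionally A, L or X, or was RPLP0, RPLP1, RPLP2 or RPSA, and if it had at least 1000 unique molecular identifiers (UMIs, counts of distinct captured transcripts) over the cells kept. Of 32738 genes in the count matrix, 82 had such a symbol and 78 were members, 47 of the large (RPL) and 31 of the small (RPS) subunit. The other 4 symbols, among them RPL10L with 0 and RPL3L with 52 UMIs, fell under the minimum and are not counted below.

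Each ribosome pairs a small subunit, which reads the mRNA, with a large subunit, which joins amino acids, and each subunit is a ribosomal RNA core covered with proteins present mostly in single copies. The mRNAs of these proteins begin with a run of pyrimidines, the 5′ terminal oligopyrimidine (TOP) motif, through which mTOR signaling sets their translation. Mutations in several of these genes cause Diamond-Blackfan anemia, in which red cell precursors fail to develop. A few members have a second, L-type gene copy, and such copies are used unevenly among tissues.

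CD34+ cells from aggregates of the induced pluripotent stem cell line iPS11 were cultured through the endothelial-to-hematopoietic transition (EHT), and nonadherent cells were harvested on day 5 from 3 wells of each of 4 surfaces: uncoated, VCAM1, DLL4, or DLL4+VCAM1. The notch ligand DLL4 and the adhesion molecule VCAM1 were the only agents that differed. The wells of a surface were combined, marked with 1 of 4 hashtag antibodies (0252 to 0255) and captured as 1 droplet library, so there were no replicates and no test was made between groups. The sources used here do not say which hashtag marked which surface, so values are given by hashtag without naming a surface.

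The cells kept were the 7550 barcodes called for 1 hashtag with at most 36000 UMIs, 6000 genes and 18% of UMIs from mitochondrial genes. They held 142110950 UMIs, between 28522216 and 40416478 per hashtag, with a median of 18318 per cell. Cells were sorted into gates by raw UMIs of marker genes. The 5 lineage gates were C1Q (C1QA, C1QB and C1QC, at least 10 UMIs together; 635 cells), ELANE (at least 10; 70 cells), PF4/PPBP (at least 10 together; 9 cells), globin (9 hemoglobin genes, at least 20; 334 cells) and collagen (COL1A1, COL1A2 and COL3A1, at least 10; 86 cells). Cells outside these formed the SPINK2 gate (at least 3; 1170 cells) and the CD34/GATA2 gate (at least 2 of each and under 3 of SPINK2; 1434 cells). A further 107 cells passed several lineage thresholds and 3705 passed none.

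The gates were checked against lists of further markers, 1 of which, CD34 in the SPINK2 list, had been used to cut another gate. All 6 markers tested for C1Q (macrophage genes such as CD14 and CSF1R), ELANE (granule genes such as MPO and PRTN3), globin (such as KLF1 and ALAS2) and collagen (such as TAGLN and LUM) were highest in their own gate. In the PF4/PPBP gate this held for 4 of 6 platelet-lineage markers, and GP1BB had no UMI. The CD34/GATA2 and SPINK2 gates were not distinct by their lists, because only 1 of 6 markers was highest in each and HLF stood at 1.43 and 1.45 counts per 1000000 gene UMIs (CPM). The 5 eosinophil and mast cell markers found summed to 241.8 CPM in the CD34/GATA2 gate, between 11.9 and 164.9 CPM in the other 6, and their part in the results below was not tested. Each gate is therefore called by its genes alone.

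Start-site sequences were read from a RefSeq table (build GRCh38.p14) that holds 250 bases before each annotated start and 50 after it. It holds 63 of the 78 members. The 15 members not listed there include RPL5, RPL23, RPL39L and RPS2. The windows below run from 10 bases before the first transcribed base to 19 after it and are printed 5′ to 3′ on the transcribed strand. The longest run of a C followed by at least 4 of C or T is in capitals. For a member with more than 1 annotated start, the window with the longest run is printed. They are shown for the most abundant members, for those whose share differed between gates, and for the parents of the L-type copies.
RPLP1, chr15:69452808-69452837, plus strand: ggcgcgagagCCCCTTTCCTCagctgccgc
RPL41, chr12:56116623-56116652, plus strand: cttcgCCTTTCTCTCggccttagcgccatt
RPS12, chr6:132814559-132814588, plus strand: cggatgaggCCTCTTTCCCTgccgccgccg
RPLP0, chr12:120201092-120201121, minus strand: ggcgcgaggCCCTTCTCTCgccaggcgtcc
RPS19, chr19:41860245-41860274, plus strand: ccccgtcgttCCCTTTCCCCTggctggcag
RPS26, chr12:56041908-56041937, plus strand: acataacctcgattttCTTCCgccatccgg
RPL39, chrX:119791611-119791640, minus strand: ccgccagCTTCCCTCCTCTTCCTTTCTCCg
RPS27, chr1:153990752-153990781, plus strand: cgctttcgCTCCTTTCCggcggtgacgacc
RPS27L, chr15:63157458-63157487, minus strand: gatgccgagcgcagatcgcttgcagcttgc

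RPLP1 and RPS19 show the classical arrangement, with the run starting at the annotated first base. RPLP1 has 1 annotated start, while RPS19 has 2 and its window was picked by the length of the run. RPL39 had a run of 22 and RPS26 one of 5, while the window of RPS27L held none. Counting a gene if any of its starts qualified, 58 of 63 members (92.1%) held such a run, against 43.5% of all 27305 genes in the table. A run of at least 8 was found in 50 members (79.4%) and in 11.9% of all genes. The windows of RPL6, RPL17, RPS4X, RPS27L and RPS29 held no run, a statement on the annotated starts alone.

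Short motifs were searched on both strands of the whole stretch of each start. CGGAAG, a core of sites for ETS-family factors, was present in 41 of 63 members (65.1%) and in 22.6% of all genes. ATGGCG, part of sites for YY1, was present in 25 (39.7%) against 12.7%. TCTCGCGA was present in 12 (19.05%) against 1.37%, and the TATA-box letters TATAAA in 5 (7.94%) against 13.99%. These are letter matches and do not show binding.

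Members held 31005732 of the UMIs in the cells kept, a share of 21.8%. The median cell had 4022 member UMIs, and 75 of 78 members had a UMI in at least 99% of cells. Levels are given as CPM, which in 3′ counting do not depend on gene length but do depend on how uniquely the reads map. The median member stood at 2747 CPM and the range ran from 42.0 CPM for RPL39L to 6883 CPM for RPLP1. The 10 most abundant members held 24.9% of member UMIs.

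RPLP1, a stalk protein, was highest, with 6921, 6779, 7026 and 6797 CPM in hashtags 0252, 0253, 0254 and 0255. RPL41, which encodes the smallest ribosomal protein, had 6454 CPM and RPS2, a protein of the mRNA entry channel, 6165 CPM over all cells. In the 4 hashtags RPL41 ran from 6349 to 6593 CPM and RPS2 from 6019 to 6287 CPM, so the order of these 3 genes was the same in each hashtag. At the other end, RPL17 had 223.7, RPS27L 231.5 and RPL36A 374.8 CPM. In GENCODE, 76 of the 78 members had named pseudogenes, with a median of 13.5 and up to 133 for RPL21. How reads that fit both a gene and its pseudogene were counted was not tested, so levels of single members are uncertain. RPL17, RPL36A and RPS10 also overlap readthrough genes of the same table. RPL39L and RPS27L had no named pseudogene.

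Members lay on 21 chromosomes, 4 of them on X. In hg19 coordinates RPLP1 spans chr15:69745153-69748544, RPS19 chr19:42364325-42376993, RPS26 chr12:56435135-56438481, RPL39 chrX:118920467-118925593 and RPS27 chr1:153963238-153964631. Their copies RPL39L and RPS27L lie elsewhere, at chr3:186838736-186898696 and chr15:63418071-63450220, both on the minus strand. The counts fall at the 3′ ends of the transcripts.

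The first comparison asked whether the summed share differed between gates. Ribosomal protein mRNAs took 22.3% of UMIs in the CD34/GATA2 gate, 22.3% in the ELANE gate, 21.8% in the SPINK2 gate, 21.0% in the globin gate, 20.9% in the C1Q gate, 20.7% in the PF4/PPBP gate and 17.97% in the collagen gate. The collagen gate was lowest in each hashtag but 0255, where the single PF4/PPBP cell had 17.4%. Its stromal list summed to 6439 CPM there, but blood transcripts were present too, with the ELANE list at 619.5 CPM. The spread over hashtags was small in the CD34/GATA2 gate (22.2, 22.2, 22.7 and 22.1%) and wide in the C1Q gate (22.5, 19.5, 21.2 and 20.1%).

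**Figure D1:**
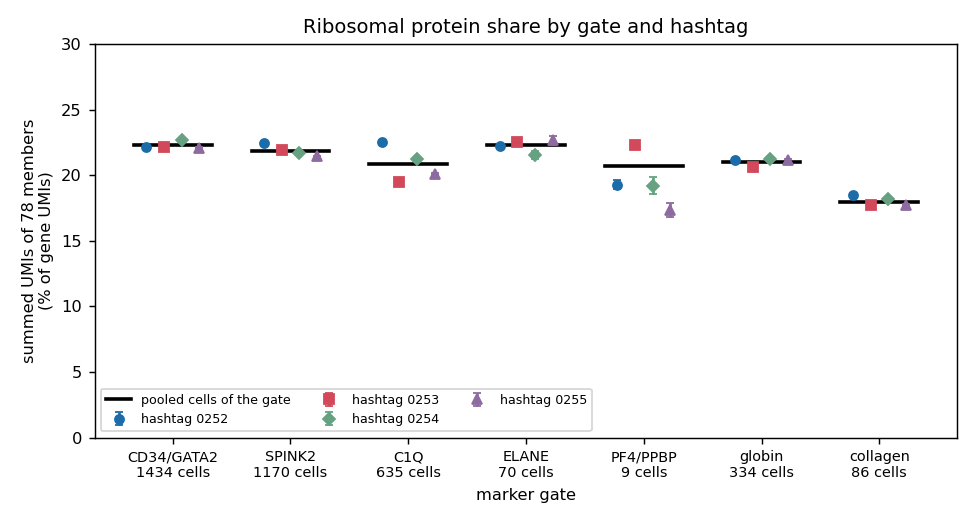
Summed UMIs of the 78 members as a percentage of all gene UMIs (vertical axis) in each marker gate (horizontal axis). Points are hashtags with 95% counting intervals, which are mostly smaller than the symbols, and bars are the pooled cells of a gate. The collagen gate lies at 17.97%, while the CD34/GATA2, SPINK2, ELANE and globin gates lie between 21.0 and 22.3%, and the C1Q hashtags scatter from 19.5 to 22.5%.

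All ratios below are to the CD34/GATA2 gate, which the 6 comparisons therefore share. The collagen share was 0.806 times that of the CD34/GATA2 gate (95% counting interval 0.803 to 0.810), with 0.834, 0.7995, 0.802 and 0.803 in the 4 hashtags. Part of this difference was common to other genes, since the median over 8879 genes with at least 1000 UMIs was 0.874 (a shift of -0.19 on the log2 scale), and relative to that median the members stood at 0.922. The globin share was 0.943 (0.941 to 0.945), lower in 4 of 4 hashtags, but relative to the median gene (0.923, a log2 shift of -0.12) it was 1.02 and thus turned direction. The median collagen cell had 9.46% mitochondrial UMIs and 14776 UMIs, against 14.1% and 20742 in the CD34/GATA2 gate. Their part in the difference was not tested.

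The C1Q and SPINK2 gates did not differ in 1 direction in every hashtag. The C1Q ratio was 0.938 (0.936 to 0.939) in the pool, with 1.02, 0.879, 0.937 and 0.908 by hashtag, and 1.03 relative to the median gene (0.908, a log2 shift of -0.14). For SPINK2 the ratio was 0.980 (0.979 to 0.981), with 1.01, 0.989, 0.956 and 0.970 by hashtag. The ELANE ratio was 1.001 (0.996 to 1.01), from 0.9501 to 1.03 by hashtag, where 2 hashtags had 5 and 3 cells. These differences lie within the spread over hashtags, which are different cultures and not replicates.

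The PF4/PPBP gate held 9 cells because 98 of the 108 cells over its threshold were also over the globin threshold. Its ratio was 0.930 (0.920 to 0.939), from 0.786 to 1.01 by hashtag, and 1.04 relative to the median gene (0.897, a log2 shift of -0.16). The 94 cells over the PF4/PPBP and globin thresholds and no other had a member share of 18.7%, a ratio of 0.838 (0.836 to 0.841) and lower in 4 of 4 hashtags. Relative to their own median gene, 0.818 (a log2 shift of -0.29), it was 1.03, the opposite direction.

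The gates were next compared member by member. A gene was called higher or lower at a CPM ratio of at least 1.3 or at most its inverse, if the exact 95% interval for counting left out 1. Of the 78 members, 1 was higher (1.28%) and 0 lower in the SPINK2 gate, while 10.5% of all 8879 genes were called higher and 9.27% lower. In the globin gate 0 members were higher against 9.09% of all genes, and 1 was lower (1.28%) against 19.1%. In the C1Q gate 1 was higher against 21.3%, and 3 were lower (3.85%) against 33.3%, which became 6 without hashtag 0252. In the ELANE gate 0 were higher against 19.9%, which became 1 without hashtag 0255, and 1 was lower against 18.8%, which became 0 without hashtag 0254. The share of members called was below that of all genes in both directions in these 4 gates.

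In the PF4/PPBP gate 0 members were higher against 6.89% of all genes (1 without hashtag 0252), and 4 were lower (5.13%) against 5.98%, a share near that background. The lower count became 7 without hashtag 0252 and 16 without hashtag 0253. The collagen gate alone had many calls among the members, with 24 lower (30.8%) against 28.9% of all genes, again near the background. It had 2 members higher (2.56%) against 19.2%, and 1 without hashtag 0253. The count of 24 rested on the scale, for it was 2 once each gene was set against the median gene and 46 once mitochondrial UMIs were taken out of the totals. A call needs an interval that leaves out 1, which is harder to reach for genes with few UMIs. Every member had at least 5966 UMIs, while the background held genes from 1000 UMIs. The shares were not matched for abundance, so no conclusion is drawn from their nearness.

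To separate a shift of all members from changes in their proportions, each member was also expressed relative to the summed member UMIs of the gate. Within 10% of their CD34/GATA2 proportion lay 74 of 78 members in the SPINK2 gate, in the globin gate 73, in the collagen gate 61, in the C1Q gate 57, in the ELANE gate 52 and in the PF4/PPBP gate 48. These counts make no allowance for counting error and were not made over all genes. The ELANE and PF4/PPBP gates held the fewest UMIs, 951654 and 188044. By the same fold and interval, 1 member was called in the SPINK2 gate, 3 in the C1Q gate, 1 in the ELANE gate (2 without hashtag 0255), 4 in the PF4/PPBP gate (1 without hashtag 0253), 1 in the globin gate (2 without hashtag 0253) and 4 in the collagen gate. Of all 8879 genes, set against the same member sum, 21, 52.9, 38.7, 13.2, 25.6 and 44.6% were called in these gates in that order. The ratio of large to small subunit UMIs lay between 1.34 in the C1Q gate and 1.37 in the ELANE gate. A direction shared by 4 of 4 hashtags, given for members below, was not particular to them. In the SPINK2 gate most members had it, even with ratios as close to 1 as those of RPL13, at 1.01 (1.005 to 1.02), and RPL32, at 0.986 (0.977 to 0.994). Such agreement therefore hardly sets a member apart. The share of all genes with such agreement, or with hashtags that do not overlap, is not given here.

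**Figure D2:**
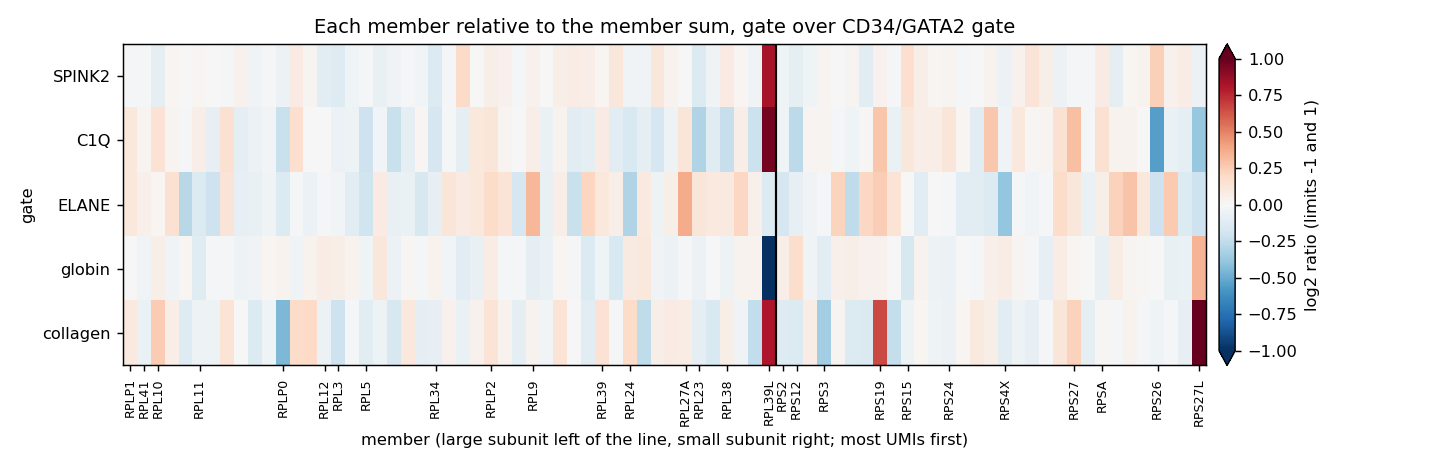
Each column is a member, large subunit left of the line and small subunit right, ordered by UMIs, with the named members labelled, and each row is a gate. Color gives the log2 ratio to the CD34/GATA2 gate of the member's share of all member UMIs, with the PF4/PPBP gate of 9 cells left out. Most cells are pale, and the strong colors are RPL39L in 4 gates, RPS27L, RPS19 and RPLP0 in the collagen gate and RPS26 in the C1Q gate.

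The ribosomal stalk, which recruits the GTPases of elongation, is built of RPLP0 at its base and RPLP1 and RPLP2 on it. RPLP0 stood at 3454, 3462, 3562 and 3501 CPM in the CD34/GATA2 gate by hashtag and at 2006, 2410, 1971 and 2039 CPM in the collagen gate, with no overlap. Its CPM ratio there was 0.592 (0.570 to 0.615), and 0.734 (0.707 to 0.763) relative to the member sum, below 1 in 4 of 4 hashtags. RPLP0 was also lower in proportion in the C1Q gate, at 0.857 (0.846 to 0.869), in 4 of 4 hashtags. Its partners did not follow it, for in the collagen gate RPLP1 stood at 1.07 (1.05 to 1.09) and RPLP2 at 1.099 (1.06 to 1.14) relative to the member sum.

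RPSA, a small subunit protein also known as the laminin receptor precursor, had 1587 CPM in the CD34/GATA2 gate. Its proportion was 1.01 (0.962 to 1.06) in the collagen gate, 1.11 (1.09 to 1.13) in the C1Q gate and 0.951 (0.931 to 0.972) in the globin gate, none of them called. RPS3, at the mRNA entry of the small subunit, had 0.784 (0.761 to 0.809) in the collagen gate, just short of a call, and its CPM ratio was 0.632 (0.613 to 0.652). RPL3, which lies near the peptidyl transferase center, had 0.866 (0.835 to 0.899) there, while RPL10, a late-joining large subunit protein, had 1.19 (1.16 to 1.22).

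RPL5 and RPL11 bind 5S ribosomal RNA and, when assembly fails, hold MDM2 away from p53. In the CD34/GATA2 gate RPL5 had 2929, 2965, 3078 and 3031 CPM and RPL11 3904, 3878, 4035 and 3979 CPM by hashtag. The hashtags of the C1Q gate lay lower for RPL5, at 2675, 2236, 2475 and 2301 CPM, and on both sides for RPL11, at 4237, 3489, 3980 and 3692 CPM. Relative to the member sum RPL5 was 0.867 (0.854 to 0.879) and RPL11 1.05 (1.03 to 1.06) in the C1Q gate, neither called. In the globin gate RPL11 was the lower of the pair, at 0.918 (0.906 to 0.931) against 0.968 (0.953 to 0.984).

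RPS19, the gene most often mutated in Diamond-Blackfan anemia and needed to mature the small subunit RNA, was high in the collagen gate. It had 4591, 4684, 5963 and 5037 CPM there by hashtag, against 4022, 4073, 4108 and 4078 CPM in the CD34/GATA2 gate. All 4 collagen values, from 10, 11, 16 and 49 cells, were above all 4 of the CD34/GATA2 gate. The CPM ratio of 1.27 (1.24 to 1.304) was just under the call, and relative to the member sum RPS19 reached 1.58 (1.54 to 1.62). It was also in higher proportion in the C1Q gate, at 1.21 (1.201 to 1.23), and in the ELANE gate, at 1.19 (1.15 to 1.22), each in 4 of 4 hashtags. In the globin gate it was 1.03 (1.02 to 1.04), with 3934, 3940, 4002 and 3950 CPM.

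RPS26, another anemia gene, whose protein contacts the mRNA at the exit site, was low in the C1Q gate. In the CD34/GATA2 gate it had 1091, 1074, 1073 and 1107 CPM, in the SPINK2 gate 1212, 1319, 1262 and 1227 CPM and in the C1Q gate 647, 688, 717 and 738 CPM. The hashtags of these 3 gates did not overlap. Relative to the member sum RPS26 was 0.682 (0.664 to 0.7003) in the C1Q gate and 1.18 (1.16 to 1.195) in the SPINK2 gate. In the globin gate it was 1.002 (0.977 to 1.03). RPS24, the third of these genes, stayed between 0.959 and 1.09 times its CD34/GATA2 proportion in the SPINK2, C1Q, ELANE, globin and collagen gates.

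**Figure D3:**
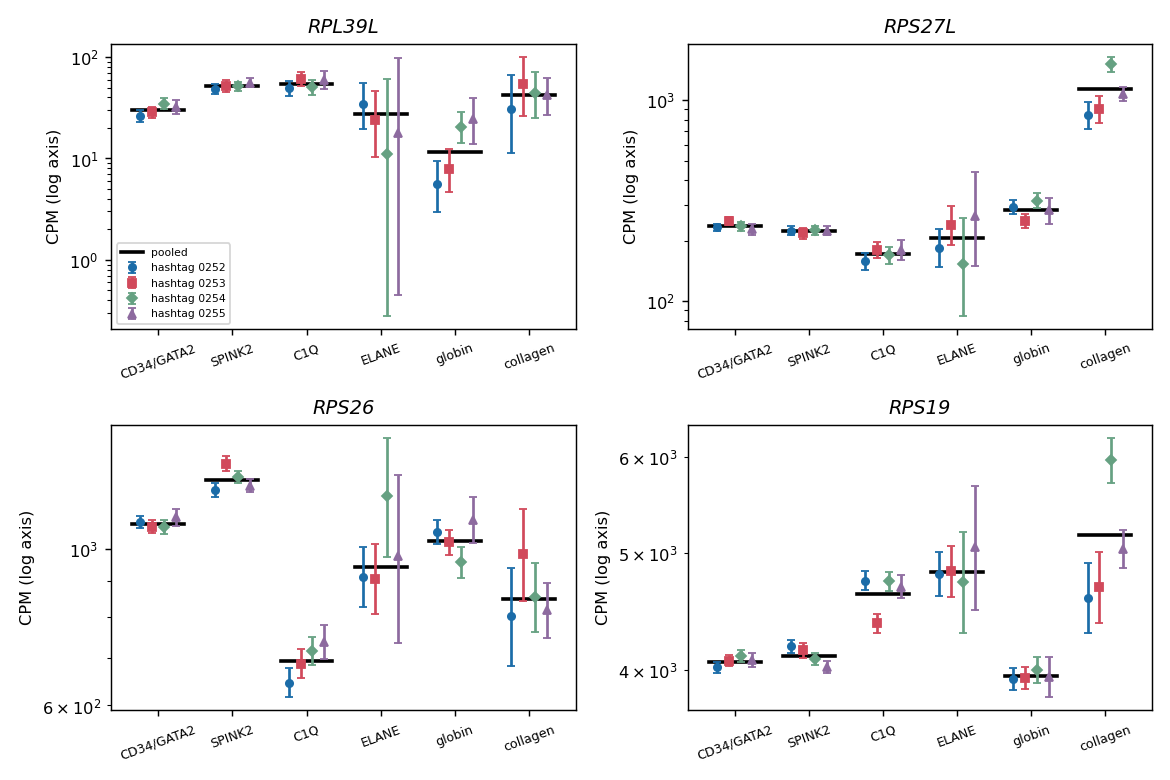
CPM on log axes (vertical) of RPL39L, RPS27L, RPS26 and RPS19 in 6 gates (horizontal). Points are hashtags with 95% counting intervals and bars are pooled cells. RPL39L is highest in the C1Q gate (54.7 CPM) and lowest in the globin gate (11.7 CPM), RPS27L stands out in the collagen gate (1135 CPM), RPS26 is lowest in the C1Q gate (693 CPM) and RPS19 is highest in the collagen gate (5175 CPM).

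In the ELANE gate the call was RPS4X, an X-linked small subunit gene, with 2209, 2237, 2230 and 2411 CPM by hashtag against 2890, 2918, 3008 and 2859 CPM in the CD34/GATA2 gate. Its ratio relative to the member sum was 0.764 (0.731 to 0.797), close to the limit. RPL27A and RPL9, both of the large subunit, were the highest there at 1.29 (1.23 to 1.36) and 1.26 (1.21 to 1.31), just short of a call, and RPL24, which forms a bridge to the small subunit, stood at 0.814 (0.772 to 0.857). RPS12, a small subunit protein, was the highest member of the globin gate after RPS27L, at 1.13 (1.12 to 1.14), with 6258, 6161, 6177 and 6043 CPM against 5967, 5864, 5775 and 5531 CPM. RPS15 was low there, at 0.896 (0.883 to 0.910).

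RPL34 and RPL23, both of the large subunit, had the lowest proportions in the SPINK2 gate, at 0.908 (0.899 to 0.918) and 0.909 (0.896 to 0.923), each below 1 in 4 of 4 hashtags. In the C1Q gate the CPM of RPL23 was 0.763 times that of the CD34/GATA2 gate (0.746 to 0.779), which was called on the CPM scale but not relative to the member sum. In the 9 PF4/PPBP cells RPS12 and RPL12 had the highest ratios relative to the member sum, 1.31 (1.24 to 1.39) and 1.18 (1.09 to 1.27), and RPL38 had 126 UMIs and a relative ratio of 0.728 (0.606 to 0.867), with 2 hashtags above 1 and 2 below.

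RPL39L was called in 5 of the 6 gates on the CPM scale. It encodes a copy of RPL39, a protein that lines the exit tunnel of the large subunit, and is known mainly from testis. By hashtag it had 26.3, 28.7, 34.8 and 32.2 CPM in the CD34/GATA2 gate and 49.0, 52.1, 51.3 and 55.9 CPM in the SPINK2 gate, which did not overlap. In the C1Q gate it had 49.3, 60.9, 50.3 and 59.5 CPM, again above every CD34/GATA2 value. In the globin gate it had 5.58, 7.88, 20.6 and 24.6 CPM, below every CD34/GATA2 value. The collagen gate, with 57 UMIs in all, overlapped it at 30.7, 54.5, 43.9 and 41.8 CPM.

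Relative to the member sum RPL39L was 1.77 (1.63 to 1.93) in the SPINK2 gate, 1.94 (1.74 to 2.16) in the C1Q gate, 1.75 (1.32 to 2.29) in the collagen gate and 0.413 (0.325 to 0.519) in the globin gate. Each direction was seen in 4 of 4 hashtags. The CD34/GATA2 gate was itself low, at 30.05 CPM against 41.98 CPM over all cells. The collagen gate, at 42.5 CPM, was thus near the level of all cells. In the ELANE gate, with 26 UMIs, it was 0.909 (0.590 to 1.34). The PF4/PPBP gate of 9 cells had 0 UMIs of RPL39L, where 3 counts would be 15.95 CPM. The interval of its CPM ratio to the CD34/GATA2 gate ran from 0 to 0.654. In 24.7% of all genes the highest hashtag was at least 1.3 times the lowest within the CD34/GATA2 gate, a rule without a counting interval. RPL39L was the only such member, at 1.32.

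The parent gene did not vary in this way, for RPL39 stood between 1762 CPM in the collagen gate and 2116 CPM in the ELANE gate. The copy therefore changed its part of the pair. RPL39L made up 1.501% (1.41 to 1.6%) of the UMIs of RPL39L and RPL39 in the CD34/GATA2 gate, 2.59% (2.45 to 2.73%) in the SPINK2 gate, 2.72% (2.49 to 2.96%) in the C1Q gate, 2.35% (1.79 to 3.04%) in the collagen gate and 0.643% (0.511 to 0.799%) in the globin gate. When each cell was thinned to 5000 UMIs, RPL39L was detected in 14.5% (12.7 to 16.4%) of CD34/GATA2 and 23.6% (21.2 to 26.1%) of SPINK2 cells. The C1Q gate had 18.8% (15.85 to 22.1%), which overlaps the CD34/GATA2 interval, and the globin gate 5.11% (3.00 to 8.05%). The ELANE gate had 4.35% (0.906 to 12.2%) and the collagen gate 18.5% (10.75 to 28.7%). Without thinning, CD34/GATA2, SPINK2, C1Q and globin cells had 42.8, 64.9, 46.8 and 18.3%. Their median depths were 20742, 21447, 13396 and 19788 UMIs. Thinning left out 3 C1Q cells, 1 globin cell, 1 ELANE cell and 5 collagen cells, and the part of free RNA in these shares was not tested.

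RPL39L was also described along the count of SPINK2 itself, over the cells outside the lineage gates. It had 38.2 CPM (36.8 to 39.7) in cells without a SPINK2 UMI, 47.4 CPM (44.3 to 50.7) with 1, 50.6 CPM (46.1 to 55.4) with 2, 49.4 CPM (45.3 to 53.6) with 3 to 4, 53.3 CPM (49.1 to 57.7) with 5 to 9 and 58.0 CPM (49.8 to 67.3) with 10 or more. Cells without a UMI were lowest in each hashtag except 0253, where the 10-or-more bin stood at 24.4 CPM. The intervals from 1 to 9 UMIs overlap. Median depth rose over the same bins from 17514 to 23123 UMIs, and the member share stayed between 21.6 and 22.2%.

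**Figure D4:**
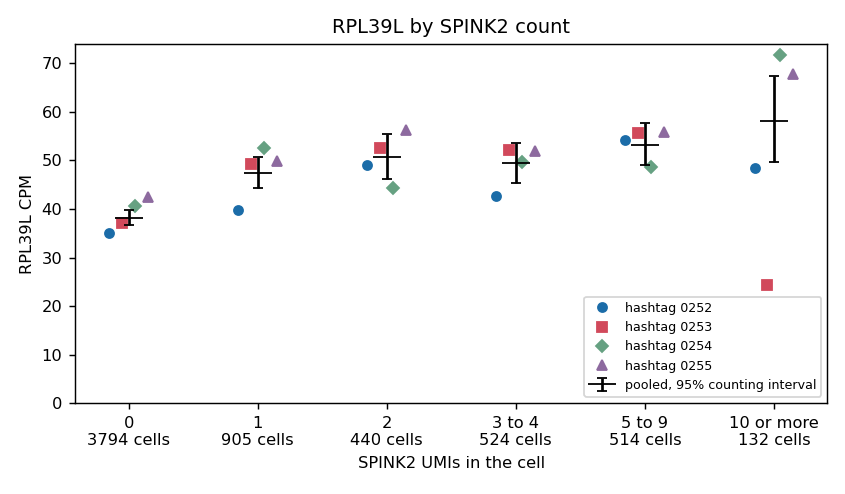
RPL39L CPM (vertical axis, from 0) in cells outside the lineage gates, binned by SPINK2 UMIs (horizontal axis, with the number of cells). Black marks are pooled cells with 95% counting intervals and colored points are hashtags. The pooled value rises from 38.2 CPM at 0 SPINK2 UMIs to 58.0 CPM at 10 or more, where hashtag 0253 falls to 24.4 CPM.

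RPS27L, a copy of RPS27 known as a p53 target, was the member most raised in any gate. In the CD34/GATA2 gate it had 233.4, 249.9, 235.3 and 227.3 CPM by hashtag, and in the collagen gate 844.5, 905.1, 1511 and 1071 CPM. The lowest collagen value was thus over 3 times the highest CD34/GATA2 value. The CPM ratio was 4.78 (4.52 to 5.05) and the ratio relative to the member sum 5.93 (5.60 to 6.26). RPS27L took 37.8% (36.3 to 39.3%) of the UMIs of the RPS27L and RPS27 pair in the collagen gate, against 10.7% (10.5 to 10.96%) in the CD34/GATA2 gate. RPS27 itself had 1868 CPM in the collagen gate and 1977 CPM in the CD34/GATA2 gate.

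In the C1Q gate RPS27L was low, at 157.6, 180.3, 169.6 and 179.7 CPM, with a relative ratio of 0.768 (0.728 to 0.811), while RPS27 was high at 1.23 (1.21 to 1.25). Its ratio was just inside the limit for a call, and without hashtag 0252 it was 0.812 and no longer called. In the globin gate RPS27L had 294.3, 251.1, 316.0 and 282.7 CPM and a relative ratio of 1.27 (1.21 to 1.33), just short of a call, in 4 of 4 hashtags. With each cell thinned to 5000 UMIs, RPS27L was detected in 97.5% of collagen cells, 72.4% of globin, 65.7% of CD34/GATA2 and 56.0% of C1Q cells.

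The hashtags were compared for the members over all cells and within the CD34/GATA2 gate. The summed share was 22.0, 21.5, 22.1 and 21.6% over all cells, so that the highest exceeded the lowest by 1.03 times, and the same ratio was 1.03 within the CD34/GATA2 gate. Over all cells 0 of 78 members differed by at least 1.3 between the highest and the lowest hashtag, against 13.2% of all genes. This rule has no counting interval, so genes with few UMIs can pass it by counting error. The genes of the background had at least 1000 UMIs, while the least abundant member, RPL39L, had 5966. The median member had a ratio of 1.04 in both settings, and 77 of 78 were under 1.1. RPL39L was the exception over all cells at 1.296, just under the threshold, with 37.2, 40.3, 44.3 and 48.2 CPM. Since the makeup of the hashtags also differed, with 294, 199, 351 and 326 cells in the SPINK2 gate, the value over all cells and that within a gate cannot be exchanged.

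Single cells differed more than counting allows. The SD of the share over all cells was 2.75 percentage points, where counting alone gives 0.335, and the middle 90% of cells lay between 17.7 and 26.4%. The spread was smallest in the SPINK2 gate (SD 1.88 points) and larger in the C1Q gate (SD 3.30 points). Within the CD34/GATA2 gate the share moved with depth, from 23.8% in the quintile of cells with the fewest UMIs to 21.4% in the quintile with the most. It also moved with the mitochondrial percentage, from 21.6% in the lowest quintile to 22.97% in the highest. Median depth fell between the same quintiles from 23178 to 18124 UMIs, and the 2 associations were not separated.

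The share differed with genes of cell division as well. Cells with at least 3 UMIs of MKI67, TOP2A, CENPF and CCNB1 together were compared with the other cells of their gate. In the CD34/GATA2 gate the values were 21.8% in 1106 such cells and 24.3% in 328 others, a ratio of 0.897 (0.895 to 0.898). In the SPINK2 gate they were 21.7% in 1089 cells and 24.3% in 81 others. The C1Q gate had 20.1% in 310 and 22.1% in 325, and the globin gate 20.4% in 225 and 22.4% in 109. In each of these gates the share was lower in 4 of 4 hashtags. The mix of such cells differed between gates, and its part in the share ratios of the gates was not tested. The ELANE gate had 22.0 and 23.7%, lower in 3 hashtags and higher in 0. Cells in no gate had 21.6 and 24.2%, lower in 4 of 4. The collagen gate had 17.9 and 18.02%, lower in 2 of 4 hashtags, the 9 PF4/PPBP cells 20.73 and 20.68%, and the cells over several lineage thresholds 18.98 and 18.84%. Cells with these UMIs had a median of 22329 UMIs against 17140 in the others of the CD34/GATA2 gate. Within the quintiles of depth of that gate, from the shallowest, the ratio was 0.916, 0.930, 0.917, 0.910 and 0.868, where the deepest quintiles held only 15 and 5 of the other cells.

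Other genes of the translation machinery were compared through 3 lists. Of 24 further genes with TOP mRNAs, 20 had at least 1000 UMIs, and their medians lay near those of the members: 0.949 in the SPINK2 gate, 0.926 in the C1Q gate, 0.948 in the globin gate and 0.771 in the collagen gate, against 0.983, 0.930, 0.940 and 0.795 for the members. In the collagen gate 9 of 20 were lower and 0 higher, against 28.9 and 19.2% of all genes. EEF1A1, the elongation factor that brings in aminoacyl-tRNA, had a ratio of 0.820 there, and TPT1, a translationally controlled tumor protein, 1.06. The largest differences were EIF4B, an initiation factor, at 2.12 in the ELANE gate and SNHG8, a host gene of a small nucleolar RNA, at 0.501 in the collagen gate.

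Genes of ribosome biogenesis, which process ribosomal RNA in the nucleolus, did not follow the members. Of the 34 tested, 31 were lower and 0 higher in the C1Q gate, with a median of 0.495, while 33.3% of all genes were lower, the median member was 0.930 and the median of all genes 0.908. NCL, which encodes nucleolin, was at 0.540 and NOP10, a part of box H/ACA particles, at 0.884. The SPINK2 gate had 9 of 34 higher and 0 lower (10.5 and 9.27% of all genes), with a median of 1.23 against 0.983 for the members and 1.05 for all genes. In the collagen gate 30 were lower (28.9% of all genes), with a median of 0.554, and 1 was higher, SBDS, which helps free the large subunit for joining and has a near-identical pseudogene, at 2.97. The lowest ratio of the list was that of RRP12, a processing factor, at 0.265 (0.0067 to 1.48) from a single UMI in the PF4/PPBP gate. The globin gate had 12 lower (19.1% of all genes) and 0 higher, with a median of 0.839.

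The ribosomal proteins of mitochondria, which are encoded in the nucleus and serve a separate ribosome, were tested through 72 genes. In the C1Q gate 46 were lower and 0 higher (median 0.734). Of all genes 33.3% were lower there and 21.3% higher, and their median was 0.908. The ELANE gate had 32 lower and 1 higher (median 0.780), against 18.8% lower, 19.9% higher and a median of 0.987 for all genes. The collagen gate had 32 lower and 0 higher (median 0.787), against 28.9% lower, 19.2% higher and a median of 0.874. In the SPINK2 gate 0 were called in either direction (median 1.11), against 9.27% lower, 10.5% higher and a median of 1.05. The globin gate had 6 lower (8.33%) and 1 higher (median 0.903), against 19.1% lower, 9.09% higher and a median of 0.923. The PF4/PPBP gate had 8 lower (11.1%) and 1 higher, against 5.98 and 6.89%. MRPL51 and MRPL41, the most abundant, stood at 0.763 and 0.768 in the C1Q gate, and MRPS26 was lowest there at 0.401. MRPS36 was highest, at 1.79 (1.19 to 2.60), in the PF4/PPBP gate of 9 cells.

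**Figure D5:**
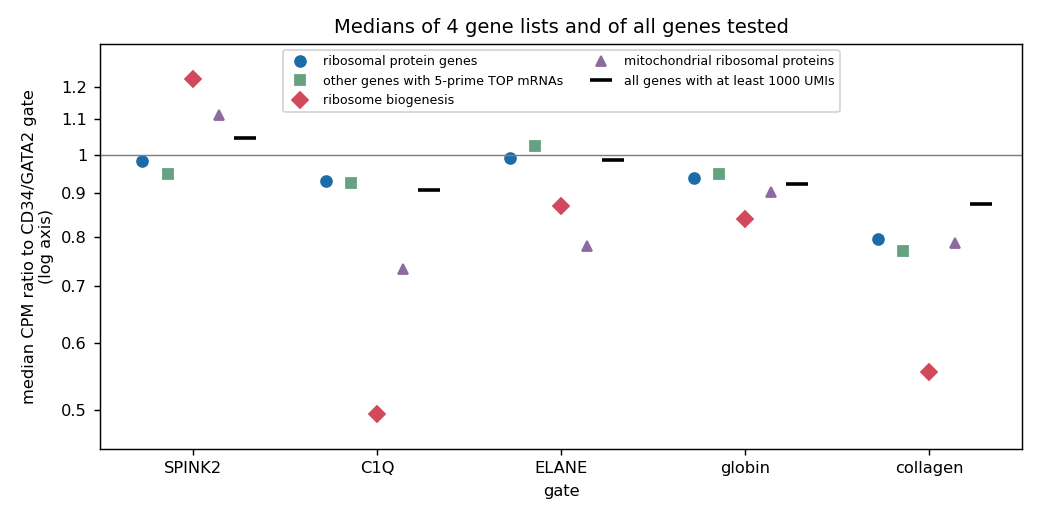
Median CPM ratio to the CD34/GATA2 gate (vertical log axis) of the members, of 20 other genes with TOP mRNAs, of 34 ribosome biogenesis genes, of 72 mitochondrial ribosomal protein genes and of all 8879 genes tested, in 5 gates (horizontal axis). In the C1Q gate the members (0.930) lie near all genes (0.908), while biogenesis genes lie at 0.495 and mitochondrial ribosomal proteins at 0.734. In the SPINK2 gate biogenesis genes are the highest of the lists, at 1.23.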

How the data were processed

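Droplet-based 3′ single-cell RNA sequencing was performed on 1 library with 4 hashtags. Per the submitters' processing notes, the authors used Cell Ranger 6.0.1 and build hg19. The deposited values are unnormalized counts, the UMIs of each gene in each barcode, beside a table of hashtag calls. Counting took reads unique to 1 gene. Of 10836 barcodes, 8488 were called for 1 hashtag and 7550 passed the limits. Hashtag doublets and negatives were left out by the deposited calls, and no further doublet caller was run.

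UMIs were summed by gate and hashtag. CPM used all gene UMIs. Shares carry Clopper-Pearson and ratios exact conditional binomial 95% intervals, for counting error only. With 1 library no p-value was computed. The members, lists and gates were chosen with earlier results of these data known. Named members were the 3 with most UMIs, the 2 highest and 2 lowest of each gate relative to the member sum, stalk and platform genes, RPL5 and RPL11, anemia genes, and L-type copies with their parents. From each list the 2 genes with most UMIs and the most changed in each direction were named. Members named for a call alone followed from the call.

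Positions came from GENCODE v44lift37 by Ensembl identifier (78 of 78 found). Python 3.11.15 with numpy 2.4.6, scipy 1.17.1, pandas 2.3.3 and matplotlib 3.10.9 was used. The call rule was run on simulated counts that varied by counting error alone. That run cannot show how the rule behaves with the larger spread between cells and hashtags. Alternatives tried are given in the closing section. Some genes are not reported here by name.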

Additional observations from a re-analysis of the deposited data

Results flagged for a closer look

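Barcodes outside the comparisons also carried ribosomal protein UMIs. The 809 barcodes called negative for hashtags but within the limits had a member share of 22.27%, with a median of 15601 UMIs, and the 1339 called doublets had 22.24%, with a median of 27367 UMIs. Among barcodes called for 1 hashtag, the 542 with over 18% mitochondrial UMIs had 19.34% of all UMIs, which was 26.89% of UMIs that were not mitochondrial, against 25.06% in the cells kept. The 397 over the limits on UMIs or genes had 20.86%. These were noted because no comparison used them, and no control samples were present.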

How the results depend on the processing

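The member share of all cells, 21.82%, was 25.06% without mitochondrial UMIs in the total, 21.12% with a mitochondrial limit of 10% (736 cells, 34 of them in the CD34/GATA2 gate) and 18.81% without the 5 most abundant members. Leaving out 1 hashtag at a time gave 21.73 to 21.92%. Setting ratios against the median gene turned the globin share ratio from 0.943 to 1.022, and gave 0.9377 for SPINK2, 1.032 for C1Q, 1.037 for PF4/PPBP and 0.9222 for collagen. A total without mitochondrial UMIs gave 0.958 for ELANE and 0.7675 for collagen, and the limit of 10% gave 0.94 for SPINK2 and 0.7897 for collagen. Without limits on UMIs or genes collagen had 0.8621. Gating on thinned cells gave 0.9231 for globin. Among alternatives chosen after seeing the data, gates that were not exclusive gave 0.9199 for globin and an MPO gate 0.9496 in place of ELANE. Without 1 hashtag the ratios ran from 0.9689 to 0.989 for SPINK2, 0.9073 to 0.9603 for C1Q, 0.9922 to 1.01 for ELANE, 0.8416 to 0.9505 for PF4/PPBP, 0.9374 to 0.9488 for globin and 0.8004 to 0.8129 for collagen. The highest over the lowest hashtag share, 1.025 in all cells, was 1.029 without mitochondrial UMIs, 1.029 with the limit of 10% and 1.033 with cells weighted equally. In the CD34/GATA2 gate, 1.026, it was 1.02 with thresholds doubled, 1.032 with thresholds halved, 1.049 on thinned cells, 1.17 with the limit of 10%, 1.023 without limits and 1.029 with the MPO gate. The 24 members lower in the collagen gate became 38 with the limit of 10%, 13 without limits, 55 at a fold of 1.2 and 2 at 1.5, and the 3 lower in the C1Q gate became 7 on thinned cells, 5 with the limit of 10%, 1 against the median gene, 10 at 1.2 and 1 at 1.5. In the ELANE gate the members lower ran from 0 to 3 and in the PF4/PPBP gate from 1 to 16. The members called relative to the member sum were followed by name across the alternatives, except those of the PF4/PPBP gate. Of their values, 100 kept their call, 10 lost it and none turned direction. The less stable calls of the PF4/PPBP gate are not in this tally. Calls were lost for RPS27L in the C1Q gate in 7 settings (0.7698 to 0.9453), for RPS4X in the ELANE gate without limits (0.7765) and with the MPO gate (0.8432), and for RPL39L in the collagen gate with the limit of 10% (1.559). The causes were not tested. Gates were also compared within each hashtag, and those ratios stand beside the pooled ones. Counting error of the summed share was small, though the share moved with depth within the CD34/GATA2 gate. The 9 PF4/PPBP, 70 ELANE and 86 collagen cells limit what their gates can show, and gates rest on raw UMIs, which rise with depth.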

Other observations

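Copies of ribosomal protein genes whose symbols lie outside the pattern were measured too. RPL22L1, a copy of RPL22, stood at 0.574 times the CPM of the CD34/GATA2 gate in the C1Q gate, 0.557 in the collagen gate and 1.13 in the SPINK2 gate. RPL7L1 was at 0.547 and 0.643 in the C1Q and collagen gates, RPL26L1 at 1.31 in the collagen gate and 0.667 in the ELANE gate, and RPL36AL, the most abundant of them, between 0.855 and 1.09 in the SPINK2, C1Q, ELANE, globin and collagen gates.

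The 107 cells over several lineage thresholds had a member share of 18.9%, with 19.5, 18.3, 18.98 and 18.6% by hashtag, and RPS27L took 14.7% (13.7 to 15.8%) of the RPS27L and RPS27 pair there. The 3705 cells in no gate had a share of 22.0%, and RPL39L took 2.31% (2.23 to 2.39%) of its pair with RPL39. Cells just under and just over a threshold numbered 198 and 162 for C1Q, 97 and 40 for globin, 440 and 288 for SPINK2, 38 and 19 for collagen 38 and 16 for ELANE, 27 and 18 for PF4/PPBP and 714 and 498 for CD34/GATA2.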
